A study of Mus musculus with 25 samples.

Results

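The long arm of a house dust mite study was compared with its own control arm: 5 lungs labelled House Dust Mite (HDM) 100 at 12 weeks against 5 labelled NaCl at 12 weeks. Members were taken from the sample titles, which put 10 of the series' 25 RNA-seq libraries in this comparison, 1 library per lung. All 10 came from female wild-type C57BL/6 mice (C57BL/6J in the sample labels, C57BL/6cmdb in the design text). HDM lungs were from mice given 100 µg of mite extract through the nose in the 12-week model. Saline lungs were from control mice of the same model, called NaCl in the titles, untreated lungs in another label and saline-treated in the protocol. The 2-week groups of the series, with 100 µg, 10 µg or saline, are used here only for the shared estimate of spread and for 1 comparison of effects near the end. The labels number the mice and do not say whether a number marks a shared cage or day, so the spread between lungs is biological and technical together.

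House dust mite extract carries proteases, chitin and microbial products. In sensitized airways it drives type 2 inflammation, in which epithelial alarmins such as IL-33 act on lymphocytes that make IL-4, IL-5 and IL-13. IL-13 turns airway cells towards mucus production and macrophages towards the alternatively activated state, with arginase and chitinase-like proteins, IL-4 turns B cells to IgE and IgG1, and long exposure thickens the airway wall with matrix and smooth muscle.

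Every direction below rests on the deposited labels, and the saline label at 12 weeks sits beside high markers of allergic inflammation. In CPM (a gene's counts per 1e+06 counts of its library, scaled for library composition), Retnla, a secreted product of alternatively activated macrophages, ran from 484 to 1355 CPM in HDM lungs and from 577 to 1301 CPM in saline lungs. In 2-week lungs it ran from 30.5 to 68.3 CPM after 100 µg and from 31.5 to 61.7 CPM after saline. Muc5ac, the inducible airway mucin, spanned 37.8 to 113 CPM in HDM lungs and 43.7 to 139 CPM in saline lungs, and it lay at 0.530 to 4.36 CPM and 0.746 to 4.37 CPM in 2-week lungs after 100 µg and after saline. Ighg1, the IgG1 heavy chain, ranged from 77.3 to 4381 CPM in HDM lungs and from 458 to 4783 CPM in saline lungs, and did not pass 2.29 CPM in 2-week lungs after 100 µg or 0.656 CPM after saline. Both 12-week groups thus stood above both 2-week groups in these 3 genes, and the text calls the 12-week groups by their labels.

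The lungs within each 12-week group were unlike one another. On the first principal component of log2 CPM, which held 42.0% of the variance, HDM replicates 2, 3 and 5 lay at 52.4, 45.0 and 42.1, while HDM replicates 1 and 4 lay at -6.42 and -5.99. Saline replicates 1 and 2 lay at the other end, at -51.2 and -59.1, with saline replicates 3, 4 and 5 at 16.9, -6.84 and -26.9. HDM replicates 1 and 4 and saline replicate 3 each had a higher Spearman correlation with the opposite group than with their own (0.987 against 0.983 and 0.987 against 0.984 for the HDM lungs, 0.990 against 0.984 for the saline lung). Depth was similar, with 32.7 to 40.7 M counts (M, mega) in HDM lungs and 29.6 to 44.2 M in saline lungs. Genes of the mitochondrial genome held 3.29 ± 0.641% of counts in HDM lungs and 5.57 ± 1.11% in saline lungs (SD, n = 5 each), with no overlap (exact permutation test, two-sided, p = 0.00794, the smallest that 5 against 5 can give). The alveolar type 2 list, a check of the lung label, summed to 27782 to 38136 CPM in HDM lungs and 25988 to 33375 CPM in saline lungs, with none of its 15 genes at 0.

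**Figure D1:**
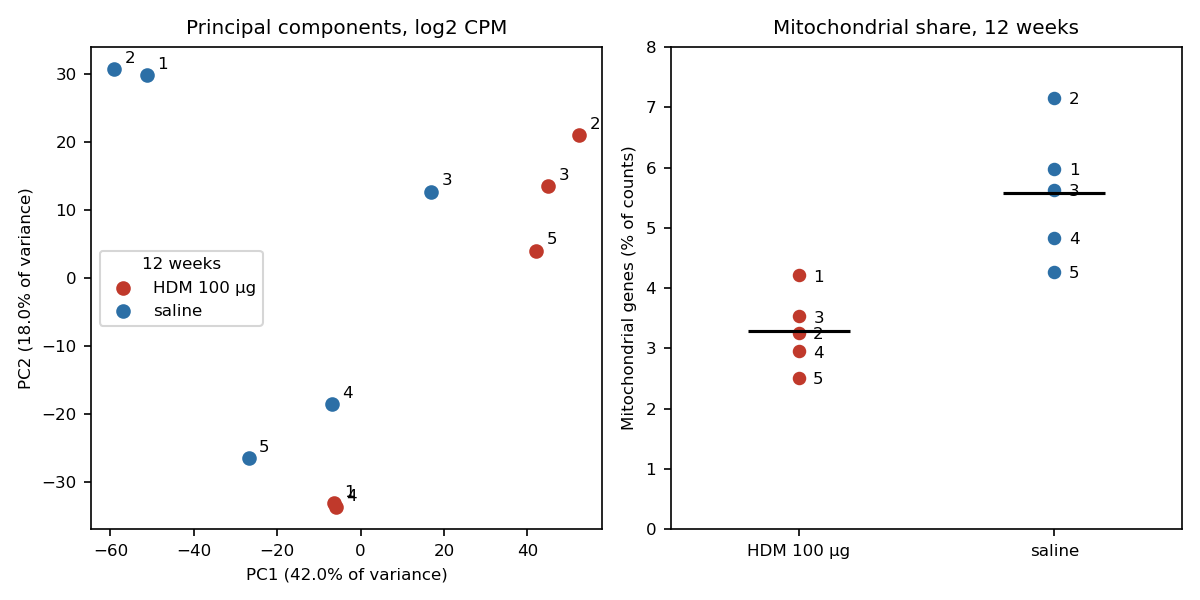
Left, the 10 12-week lungs on the first and second principal components of log2 CPM (axes in component units), HDM red and saline blue, numbered by replicate. Right, mitochondrial genes as a percentage of counts per lung, with a line at the group mean; HDM lungs span 2.504 to 4.21% and saline lungs 4.26 to 7.16%, while on the left HDM replicates 1 and 4 lie beside saline replicates 4 and 5.

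Over all 19654 genes tested, 1644 were called at an adjusted p under 0.05 (8.36%), 843 higher in HDM lungs (4.29%) and 801 lower (4.08%). An unadjusted p under 0.05 was reached by 5838 of the 19654, the background for the unadjusted counts given for lists below. At least 2-fold changes were called in 66 genes higher (0.336%) and 227 lower (1.15%). HDM and saline lungs did not overlap in 1020 genes (5.19%), with HDM lungs above in 668 (3.40%) and below in 352 (1.79%), and 483 genes were both called and without overlap. The counts of each gene list below are to be read against these shares over all genes. Upper-quartile scaling moved the split to 672 higher and 1277 lower. These calls came from edgeR's quasi-likelihood test with all 25 libraries sharing 1 estimate of spread, and they were not stable. With only the 10 12-week libraries in the fit edgeR called 0 genes (4991 at an unadjusted p under 0.05), limma-voom 0 and DESeq2 1661. In the 25-library fit the count was 0 without saline replicate 1, 0 without saline replicate 2 and 0 without HDM replicate 3, with 4105, 3981 and 4512 genes at an unadjusted p under 0.05, and it was 31 without HDM replicate 2. Leaving out HDM replicate 5 left 4 genes: Fdft1, Cxcr1, Igkv4-58 and Gm43085, the last 3 named because they were left and not by the rule for named genes. The count was 3156 without HDM replicate 1 and 3500 without saline replicate 3, both lungs that correlated better with the opposite group. Every gene or list called below therefore lost its call without saline replicate 1, without saline replicate 2 and without HDM replicate 3, and the text gives the fold change with each lung left out where it matters.

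Macrophage genes of the alternatively activated state were lower in HDM lungs for 4 of 18 tested members and higher for 0, with a median log2 fold change of -0.42, against 0.006 over all genes. Arg1, the arginase that turns arginine into ornithine, stood at 49.8, 8.94, 4.34, 77.1 and 12.3 CPM in HDM replicates 1 to 5, against 95.7, 102, 12.3, 87.4 and 227 CPM in saline replicates 1 to 5. HDM replicates 1 and 4 were the highest of their group, and saline replicate 3 was level with HDM replicate 5, so the groups overlapped. Arg1 fell by 1.79 on the log2 scale (SE 0.56, adjusted p = 0.0490), and by between 1.32 and 2.49 with each lung left out in turn. Spp1, which encodes osteopontin, stood at 168, 32.8, 49.7, 138 and 44.1 CPM in HDM lungs, against 222, 234, 66.6, 233 and 436 CPM in saline lungs, a log2 change of -1.46 (SE 0.41, adjusted p = 0.0342). Pdcd1lg2, the checkpoint ligand PD-L2, averaged 6.68 ± 5.24 CPM in HDM lungs and 17.6 ± 8.41 CPM in saline lungs (SD, n = 5 each) and also fell (-1.40, SE 0.39, adjusted p = 0.0342). Retnla at -0.31 (adjusted p = 0.466), Chil3, a chitinase-like protein, at 0.22 (adjusted p = 0.706) and Fn1, fibronectin, at -0.69 (adjusted p = 0.0626) did not pass the test. Since lung tissue was sequenced in bulk, fewer cells of a type and less RNA per cell cannot be told apart.

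Among the metalloproteinase genes, Mmp13, a collagenase, stood at 7.07, 0.871, 0.732, 12.4 and 0.853 CPM in HDM lungs, against 33.7, 52.0, 3.35, 33.5 and 54.5 CPM in saline lungs. HDM replicates 1 and 4 were the highest of their group and saline replicate 3 the lowest of its group, the only saline lung inside the HDM range. Mmp13 (ENSMUSG00000050578, GRCm38 chromosome 9, 7272514 to 7283331) fell by 3.02 on the log2 scale (SE 0.63, adjusted p = 0.0179), and by 2.76 to 3.94 with each lung left out. Mmp12, the macrophage elastase, stood at 772, 44.2, 98.6, 886 and 181 CPM in HDM lungs and at 1521, 2091, 329, 1286 and 1145 CPM in saline lungs, and it missed the threshold (-1.69, SE 0.54, adjusted p = 0.0504). Of 23 metalloproteinase and inhibitor genes tested, 2 were lower, Mmp13 and the inhibitor Timp1 (-0.89, SE 0.28, adjusted p = 0.0494), and 2 were higher, among them the aggrecanase-family protease Adamts1 (0.67, SE 0.16, adjusted p = 0.0237). The list's median was -0.06.

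Of the alveolar macrophage markers 4 of 17 tested were higher in HDM lungs, 0 were lower, 6 of the 17 had a negative log2 fold change, and the median was 0.36. Without HDM replicate 1 the median was 0.13, with 4 called higher and 2 lower, and limma-voom called 4 higher and 1 lower. Marco, a scavenger receptor, stood at 10.95, 26.5, 12.9, 4.46 and 28.1 CPM in HDM lungs, against 1.55, 6.69, 9.73, 4.24 and 3.56 CPM in saline lungs, a log2 change of 1.69 (SE 0.42, adjusted p = 0.0264). HDM replicate 4 lay among the saline lungs and the other HDM lungs above all of them. Ear1, of the eosinophil-associated ribonuclease family, stood at 13.7, 9.74, 10.3, 8.71 and 16.9 CPM in HDM lungs, against 1.59, 4.33, 7.83, 3.17 and 2.68 CPM in saline lungs, with no overlap (1.60, SE 0.31, adjusted p = 0.0175). Ear genes are near-identical copies, so the assignment of reads to Ear1 is uncertain. Krt79 rose to 23.2 ± 9.40 CPM in HDM lungs, against 7.98 ± 5.67 CPM in saline lungs (SD, n = 5 each), and Krt19, a keratin that epithelium also makes, to 110.5 ± 12.5 CPM against 77.3 ± 17.4 CPM. Of 16 interstitial macrophage and monocyte markers edgeR called 0 in either direction (median -0.06; 2 at an unadjusted p under 0.05), DESeq2 1 lower and limma-voom 2 lower.

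Chemokine ligand genes were lower in HDM lungs for 5 of 31 tested (16.1%, against 4.08% of all genes) and higher for 0, with a median of -0.21. Ccl28, an epithelial chemokine that draws cells through CCR3 and CCR10, stood at 0.438, 0.306, 0.610, 0.0806 and 0.303 CPM in HDM lungs, against 2.53, 2.66, 1.18, 2.10 and 2.33 CPM in saline lungs. No HDM lung reached the lowest saline lung, replicate 3. Ccl28 (ENSMUSG00000074715, GRCm38 chromosome 13, 119623819 to 119654359) fell by 2.62 on the log2 scale (SE 0.49, adjusted p = 0.0175), and by 2.38 to 2.95 with each lung left out. Ccl24, an eotaxin that attracts eosinophils, stood at 3.60, 2.66, 0.146, 8.71 and 2.97 CPM in HDM lungs, against 21.2, 21.6, 0.526, 9.17 and 30.3 CPM in saline lungs (-2.20, SE 0.61, adjusted p = 0.0330), and replicate 3 was the lowest of each group. With each lung left out Ccl24 ran from -2.84, without HDM replicate 4, to -1.89. Ccl25, a ligand of CCR9, had 6.56 ± 0.747 CPM in HDM lungs and 11.02 ± 2.49 CPM in saline lungs (SD, n = 5 each) without overlap. Ccl9, a macrophage inflammatory protein, and the lung chemokine Cxcl15 fell by 1.23 and 0.46 on the log2 scale (adjusted p = 0.0365 and 0.0456). Of 12 proinflammatory cytokine genes tested 2 were lower and 0 higher. They were Il1rn, the IL-1 receptor antagonist (-1.22, SE 0.35, adjusted p = 0.0359), and Csf2, GM-CSF (-1.09, SE 0.29, adjusted p = 0.0314).

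**Figure D2:**
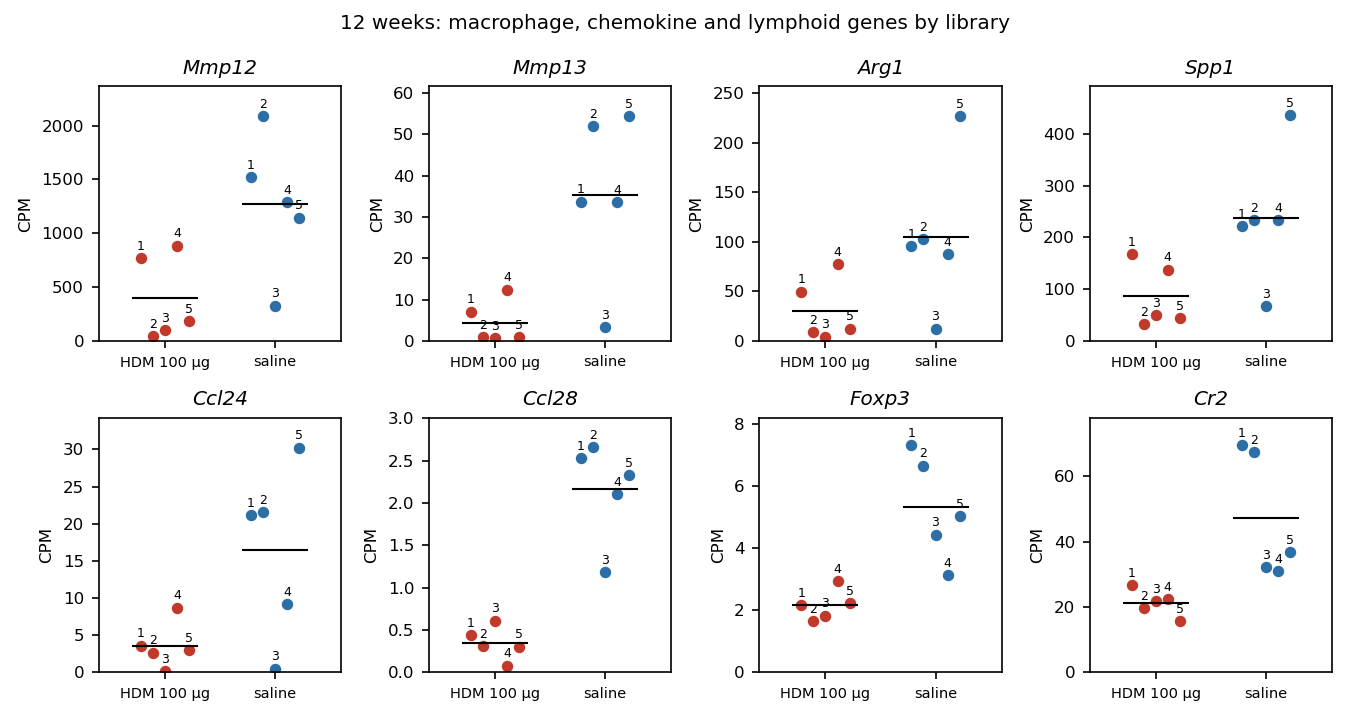
CPM (linear axes from 0) of 8 macrophage, chemokine and lymphoid genes in each 12-week lung, HDM red at left and saline blue at right, numbered by replicate, with a line at the group mean. For Mmp12, Mmp13, Arg1 and Spp1 HDM replicates 1 and 4 are the highest of their group and saline replicate 3 the lowest of its group, while Ccl28, Foxp3 and Cr2 do not overlap.

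In a panel of 33 genes known for allergic inflammation and remodelling, 32 passed the filter on low counts, 6 were lower in HDM lungs, 0 were higher, and the median was -0.38, or -0.66 without HDM replicate 1. The 6 were Arg1, Spp1, Ccl24, Foxp3, Cxcl13 and Il13ra2, the decoy receptor of IL-13 (-1.28, SE 0.38, adjusted p = 0.0403). The cytokine genes themselves were near the limit of detection: Il4 averaged 0.866 ± 0.430 CPM in HDM lungs and 1.52 ± 0.906 CPM in saline lungs, Il5 0.326 ± 0.184 CPM and 0.391 ± 0.139 CPM, and Il13 0.532 ± 0.298 CPM and 0.823 ± 0.534 CPM (SD, n = 5 each), and none passed the test. Il25 had counts in 1 lung, saline replicate 4 at 0.0314 CPM, and was not tested. Il33 stood at 231 ± 40.1 CPM in HDM lungs and 273 ± 68.2 CPM in saline lungs (adjusted p = 0.291). Of 16 type 2 cytokine and receptor genes tested Il13ra2 was the 1 called. Il18, an alarmin of the IL-1 family, was the 1 called of 6 alarmin genes and was higher, at 7.57 ± 1.60 CPM in HDM lungs and 3.67 ± 1.65 CPM in saline lungs (1.05, SE 0.23, adjusted p = 0.0191). Of 12 eosinophil markers edgeR called 0, with 2 at an unadjusted p under 0.05 and a median of -0.62, DESeq2 0 and limma-voom 4 lower. The eosinophil peroxidase gene Epx was at 0.335 ± 0.191 CPM in HDM lungs and 0.516 ± 0.255 CPM in saline lungs. Of 14 neutrophil markers 1 was called, G0s2, which restrains lipid breakdown and is not confined to neutrophils. It was higher, with S100a8, a calprotectin subunit, at 0.37 (adjusted p = 0.473). Of the 14 neutrophil markers 8 had a negative log2 fold change, and the list's median was -0.10.

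Immunoglobulin output varied more within the groups than between them. Ighg1 stood at 4381, 103, 735, 3235 and 77.3 CPM in HDM lungs, against 2296, 4783, 458, 1571 and 1828 CPM in saline lungs. HDM replicates 1 and 4 were 2 of the 3 highest of the 10 lungs, and HDM replicates 2 and 5 were the lowest 2. Ighe, the IgE heavy chain, stood at 55.7, 1.34, 8.57, 41.2 and 0.716 CPM in HDM lungs, against 20.9, 79.8, 3.09, 7.88 and 13.4 CPM in saline lungs, with the same 2 HDM lungs lowest. Neither gene passed the test (Ighg1 -0.36, SE 0.72, adjusted p = 0.769, and Ighe -0.23, SE 0.89, adjusted p = 0.890). Igha, the IgA heavy chain, averaged 732 ± 467 CPM in HDM lungs and 388 ± 87.4 CPM in saline lungs (0.92, SE 0.39, adjusted p = 0.118). Of 20 plasma cell and immunoglobulin genes tested 1 was called, Ighd, the heavy chain of naive B cells, and it was lower (-0.76, SE 0.19, adjusted p = 0.0262).

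Of 14 B cell markers tested 4 were called lower in HDM lungs (28.6%, against 4.08% of all genes) and 0 higher. All 14 had a negative log2 fold change, and the median was -0.47. Cr2, the complement receptor of mature B cells and follicular dendritic cells, stood at 26.7, 19.7, 21.7, 22.4 and 15.6 CPM in HDM lungs, against 69.6, 67.4, 32.2, 30.9 and 36.8 CPM in saline lungs. The groups did not overlap, and saline replicates 1 and 2 stood well above the other saline lungs. Cr2 fell by 1.16 on the log2 scale (SE 0.25, adjusted p = 0.0189), and by 0.99 to 1.30 with each lung left out. Bank1, a B cell receptor adaptor, fell by 0.81 (SE 0.20, adjusted p = 0.0253), Fcer2a, the low-affinity IgE receptor CD23, by 0.64 (SE 0.19, adjusted p = 0.0409) and Ebf1, a B lineage transcription factor, by 0.53 (SE 0.16, adjusted p = 0.0405). The list summed to 350 to 569 CPM in HDM lungs and 547 to 826 CPM in saline lungs. Cxcl13, which draws B cells into follicles, averaged 3.96 ± 1.90 CPM in HDM lungs and 9.98 ± 4.38 CPM in saline lungs (SD, n = 5 each). It and Cr2 were the 2 called of 13 lymphoid aggregate genes.

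Foxp3, the lineage factor of regulatory T cells, stood at 2.16, 1.65, 1.83, 2.93 and 2.23 CPM in HDM lungs, against 7.32, 6.66, 4.44, 3.14 and 5.03 CPM in saline lungs, without overlap. Foxp3 (ENSMUSG00000039521, GRCm38 chromosome X, 7573644 to 7595245) fell by 1.30 on the log2 scale (SE 0.27, adjusted p = 0.0179), and by 1.17 to 1.46 with each lung left out. It and Ikzf2, which encodes Helios (-0.36, SE 0.11, adjusted p = 0.0416), were the 2 called of 14 regulatory T cell and checkpoint genes, whose median was -0.35. General T cell genes gave 0 calls of 18 in edgeR (median 0.02; 220 to 269 CPM summed in HDM lungs and 215 to 277 CPM in saline lungs), with 3 at an unadjusted p under 0.05, 0 calls in DESeq2 and 1 lower in limma-voom. Natural killer genes gave 0 of 13 (median 0.19; 0 at an unadjusted p under 0.05) and MHC class II genes 0 of 11 (median -0.09; 2 at an unadjusted p under 0.05) in edgeR, DESeq2 and limma-voom alike. Among 16 dendritic cell genes 2 were higher, Cd209a, of monocyte-derived and conventional dendritic cells (0.62, SE 0.19, adjusted p = 0.0456), and Bst2, a plasmacytoid marker that interferon also induces (0.68, SE 0.16, adjusted p = 0.0225). The dendritic cell list's median was -0.01. Of 11 mast cell and basophil genes 1 was called, Cd200r3, a basophil and mast cell receptor, and it was lower (-1.55, SE 0.39, adjusted p = 0.0264). It went against its list, in which 8 of the 11 had a positive log2 fold change and the median was 0.38.

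Cell division genes were lower for 3 of 30 tested (10.0%, against 4.08% of all genes) and higher for 0, and 0 of the 30 were without overlap between the groups, against 5.19% of all genes. Of the 30, 26 had a negative log2 fold change, with a median of -0.40. Mki67, the Ki-67 antigen of cycling cells, stood at 150, 106, 86.6, 263 and 136 CPM in HDM lungs, against 328, 416, 140, 187 and 210 CPM in saline lungs. HDM replicate 4 lay above 3 of the saline lungs, so the groups overlapped (-0.79, SE 0.25, adjusted p = 0.0472). Tpx2 and Cenpf, of the spindle and the kinetochore, fell by 0.84 and 0.87 (adjusted p = 0.0313 and 0.0417). With each lung left out the log2 fold change of Mki67 ran from -1.11 to -0.54, and the list's median over all alternatives from -0.63 to -0.06.

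Collagen and other matrix genes gave few calls, as did all genes tested, of which 4.29% were called higher and 4.08% lower. Col1a1 and Col3a1, the main fibrillar collagens, stood at 460 ± 182 and 2005 ± 412 CPM in HDM lungs, against 578 ± 118 and 1949 ± 320 CPM in saline lungs (SD, n = 5 each), and neither passed the test (adjusted p = 0.305 and 0.887). Of 26 fibrillar collagen and cross-linking genes 1 was higher, P4ha1, a prolyl hydroxylase of collagen (0.37, SE 0.11, adjusted p = 0.0383). Of 33 matricellular, proteoglycan and elastic fibre genes Spp1 was the 1 called. Of 21 basement membrane genes edgeR called 0 (6 at an unadjusted p under 0.05, against 5838 of all 19654 genes), DESeq2 1 lower and limma-voom 1 higher and 1 lower. Tnc, tenascin C, averaged 100 ± 54.1 CPM in HDM lungs and 153 ± 49.4 CPM in saline lungs (adjusted p = 0.141), and Postn, periostin, 405 ± 49.1 CPM and 387 ± 51.9 CPM (adjusted p = 0.716). In the TGF-beta pathway 3 of 22 genes were higher, among them the signalling antagonists Smad6 (0.76) and Bambi (0.63), and 1 was lower, Itgb6, an integrin subunit that activates latent TGF-beta (-0.48, SE 0.15, adjusted p = 0.0442). Tagln, a smooth muscle actin-binding protein, was the 1 called of 18 contractile genes (0.62, SE 0.17, adjusted p = 0.0316), and Acta2, smooth muscle actin, stood at 0.24 (adjusted p = 0.289).

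Endothelial genes were higher for 8 of 21 tested, against 4.29% of all genes, 0 were lower, and the median was 0.24. Sele, the E-selectin that lets leukocytes roll, stood at 1.82, 4.75, 4.64, 8.28 and 13.4 CPM in HDM lungs, against 2.36, 1.88, 2.76, 2.07 and 3.09 CPM in saline lungs. HDM replicate 1 was the lowest of the 10 lungs and the other HDM lungs were above all saline lungs (1.44, SE 0.34, adjusted p = 0.0237). The tight junction gene Cldn5 stood at 230 ± 41.1 CPM in HDM lungs and 145 ± 35.8 CPM in saline lungs, Apln, the ligand of the apelin receptor, at 38.6 ± 7.48 CPM and 22.5 ± 8.75 CPM, and Kdr, the VEGF receptor, at 398 ± 55.4 CPM and 309 ± 43.1 CPM (SD, n = 5 each). The list summed to 4665 to 5765 CPM in HDM lungs and 4234 to 5291 CPM in saline lungs. Of 18 fibroblast genes 3 were higher: Inmt, a methyltransferase of lung fibroblasts (1.18, SE 0.26, adjusted p = 0.0191), the signal Wnt2 (0.80, SE 0.24, adjusted p = 0.0440) and the esterase Ces1d (0.66, SE 0.21, adjusted p = 0.0495).

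Airway and alveolar epithelium gave calls in both directions. Of 18 mucus and goblet cell genes 15 had a negative log2 fold change and 1 was called, Muc4, a membrane mucin, at 117, 51.8, 65.2, 83.6 and 48.7 CPM in HDM lungs and 211, 252, 102, 134 and 151 CPM in saline lungs. HDM replicate 1 was above saline replicate 3 only, and the fold change was -1.22 (SE 0.36, adjusted p = 0.0385). Muc5ac at -0.82 (adjusted p = 0.159), Muc5b, the constitutive mucin, at -0.59 (adjusted p = 0.351) and the goblet cell product Clca1 at -0.41 (adjusted p = 0.823) did not pass, and the list's median was -0.49. Club cell genes were higher for 3 of 13 tested and had a median of 0.46. The 3 were the oxygenase Fmo2 (0.65, SE 0.18, adjusted p = 0.0320), the glutathione transferase Gsta3 (0.80, SE 0.24, adjusted p = 0.0417) and the haemoglobin binder Hp (0.62, SE 0.19, adjusted p = 0.0478). Ciliated cell genes gave 0 calls of 16 in edgeR (4 at an unadjusted p under 0.05) and 2 higher in DESeq2 and in limma-voom. Among 12 alveolar type 1 genes Hopx was called higher (0.81, SE 0.17, adjusted p = 0.0189), and the list's median was 0.35. Among 15 alveolar type 2 genes Cxcl15 was called, and it was lower. It went against its list, in which 12 of the 15 had a positive log2 fold change and the median was 0.06. Of 8 basal and injury-associated genes tested Krt8, a keratin of simple and transitional epithelium, was higher (0.62, SE 0.19, adjusted p = 0.0406) and Sprr1a, of squamous epithelium, was lower (-1.02, SE 0.30, adjusted p = 0.0387). Of 21 xenobiotic and antioxidant genes 2 were higher, the glutathione transferase Gstm1 and the cytochrome Cyp4b1 (0.84 and 0.90; adjusted p = 0.0196 and 0.0342).

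Heat shock genes were higher for 4 of 12 tested and lower for 0, with a median of 0.28. The promoters of 3 of the 4 are shown because each holds the letters GAANNTTC, the core pair of inverted units to which heat shock factor binds, given here in capitals. Sequences are from RefSeq, GRCm38.p6, 250 bases before to 50 after the start, 5′ to 3′ on the gene's strand: Hspa1a at chr17:34972107-34972406 on the minus strand, Hspa1b at chr17:34959189-34959488 on the minus strand and Hspb1 at chr5:135887669-135887968 on the plus strand.
Hspa1a: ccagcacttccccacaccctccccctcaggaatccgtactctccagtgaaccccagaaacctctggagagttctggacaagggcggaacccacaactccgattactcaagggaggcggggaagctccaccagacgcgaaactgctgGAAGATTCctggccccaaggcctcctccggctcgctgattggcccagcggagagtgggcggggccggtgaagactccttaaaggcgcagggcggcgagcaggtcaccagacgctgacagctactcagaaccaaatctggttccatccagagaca
Hspa1b: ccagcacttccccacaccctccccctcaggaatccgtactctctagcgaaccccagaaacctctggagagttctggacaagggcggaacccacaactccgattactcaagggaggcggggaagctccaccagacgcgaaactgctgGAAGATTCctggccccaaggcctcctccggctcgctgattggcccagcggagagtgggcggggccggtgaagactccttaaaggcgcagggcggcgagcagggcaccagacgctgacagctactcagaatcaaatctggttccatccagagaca
Hspb1: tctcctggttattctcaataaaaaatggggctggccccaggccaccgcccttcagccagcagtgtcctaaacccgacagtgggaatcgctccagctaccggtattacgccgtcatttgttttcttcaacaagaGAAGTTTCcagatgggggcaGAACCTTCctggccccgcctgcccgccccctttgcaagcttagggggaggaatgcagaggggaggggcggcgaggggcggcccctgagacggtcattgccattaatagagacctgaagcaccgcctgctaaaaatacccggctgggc
The motif reads the same on both strands and was counted with overlaps allowed. It begins 104 bases before the start in Hspa1a and Hspa1b and 117 and 97 bases before it in Hspb1. Of the 32851 promoters listed by RefSeq, 7.86% hold it, and 8 of the 10 heat shock list genes found there hold it in any promoter. The first share counts promoters and the second counts genes, so they are not in the same unit. A match is a description of the letters and not evidence of a bound site.

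Hspa1a, an inducible HSP70 chaperone, stood at 3.76, 21.9, 16.3, 24.997 and 25.02 CPM in HDM lungs, against 3.60, 3.16, 7.30, 5.96 and 6.36 CPM in saline lungs. HDM replicate 1 lay among the saline lungs and the other HDM lungs at more than any saline lung. The log2 fold change was 1.81 (SE 0.38, adjusted p = 0.0188), between 1.67 and 2.06 with each lung left out. Hspa1b gave 1.77 (SE 0.38, adjusted p = 0.0188), but its promoter matches that of Hspa1a at 296 of 300 positions and the pair are near-identical copies, so how their reads were split is uncertain. Hspb1, the small chaperone HSP27, was at 38.4 ± 8.01 CPM in HDM lungs and 25.4 ± 3.89 CPM in saline lungs, and Dnajb1, an HSP70 partner, at 47.9 ± 15.0 CPM and 27.7 ± 6.69 CPM (SD, n = 5 each), and both rose (0.60 and 0.79; adjusted p = 0.0295 and 0.0264). Immediate early genes were higher for 3 of 15 tested and had a median of 0.57. The 3 were Jun, an AP-1 subunit (0.59, SE 0.13, adjusted p = 0.0202), Ier2 (0.71, SE 0.19, adjusted p = 0.0320) and the antiproliferative factor Btg2 (0.64, SE 0.18, adjusted p = 0.0351). Dusp1, a phosphatase of stress kinases, and Errfi1, an inhibitor of the EGF receptor, were the 2 higher of 15 glucocorticoid-responsive genes (0.94 and 0.83; adjusted p = 0.0316 and 0.0270), and the fold change of Errfi1 was 0.54 without HDM replicate 5, whose level was 314 CPM. Of the 15, 9 were positive and 6 negative, with a median of 0.07. The list summed to 1666 to 2634 CPM in HDM lungs and 2302 to 2813 CPM in saline lungs. DESeq2 and limma-voom each called 4 higher and 1 lower. Of 18 clock genes the output factor Tef was the 1 called (0.59, SE 0.16, adjusted p = 0.0305). An unadjusted p under 0.05 was reached by 11 of the 18. In direction 11 of the 18 were positive and 7 negative. DESeq2 called 2 clock genes higher and 2 lower, and limma-voom 4 higher and 0 lower. The time of day of collection and the time from death to preservation are not stated by the labels, and their part in these genes was not tested.

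Cholesterol synthesis and uptake genes differed little between lungs of a group. Of 19 tested, 6 were higher in HDM lungs (31.6%, against 4.29% of all genes) and 0 were lower, with a median of 0.32. In 5 the groups did not overlap (26.3%, against 5.19% of all genes). Fdft1, squalene synthase, stood at 49.5, 47.6, 48.8, 45.0 and 48.8 CPM in HDM lungs, against 31.3, 30.2, 35.7, 33.8 and 35.9 CPM in saline lungs. All 5 HDM lungs, replicates 1 and 4 included, lay above all saline lungs. Fdft1 (ENSMUSG00000021273, GRCm38 chromosome 14, 63145150 to 63179578) rose by 0.52 on the log2 scale (SE 0.08, adjusted p = 0.0175). Its fold change stayed between 0.49 and 0.54 with each lung left out, and it was 1 of the 4 genes called without HDM replicate 5. Insig1, which holds back the sterol-sensing escort of SREBP, stood at 87.0, 90.3, 94.7, 81.6 and 97.0 CPM in HDM lungs, against 60.6, 56.8, 73.0, 63.9 and 60.5 CPM in saline lungs (0.52, SE 0.09, adjusted p = 0.0175). Lss, lanosterol synthase, and Sqle, squalene epoxidase, stood at 42.9 ± 3.70 and 50.04 ± 2.07 CPM in HDM lungs, against 30.9 ± 5.26 and 38.7 ± 4.53 CPM in saline lungs (SD, n = 5 each), also without overlap. Over all alternatives the list's median stayed between 0.26 and 0.34. Scd1, a desaturase that makes monounsaturated fatty acids and that SREBP factors also induce, was at 2830 ± 943 CPM in HDM lungs and 4329 ± 683 CPM in saline lungs and did not pass (-0.61, SE 0.25, adjusted p = 0.107).

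Nuclear-encoded respiratory genes and mitochondrially encoded genes leaned in opposite directions, with 1 call among the latter. Of 31 nuclear-encoded oxidative phosphorylation genes tested, 11 were higher in HDM lungs (35.5%, against 4.29% of all genes) and 0 were lower, with a median of 0.25. In 18 every HDM lung was above every saline lung (58.1%, against 3.40% of all genes). Cox4i1, a cytochrome c oxidase subunit, stood at 119, 134, 143, 150 and 139 CPM in HDM lungs, against 86.4, 96.9, 114, 113 and 103 CPM in saline lungs (0.41, SE 0.08, adjusted p = 0.0179). Ndufa9, of complex I, stood at 41.2 ± 3.87 CPM in HDM lungs and 30.1 ± 3.94 CPM in saline lungs (SD, n = 5 each; 0.45, SE 0.10, adjusted p = 0.0196), and Cox5b at 73.5 ± 4.11 CPM and 57.7 ± 3.82 CPM. All 10 mitochondrially encoded genes tested had a negative log2 fold change, with a median of -0.74. They include the ribosomal RNAs mt-Rnr1 and mt-Rnr2, which are not chain genes. They also include mt-Nd3, at 0.0272 to 0.228 CPM in HDM lungs and 0.0631 to 0.249 CPM in saline lungs, near the limit of detection. The 1 called of the 10 (10.0%, against 4.08% of all genes) was mt-Nd5, of complex I. It stood at 1069, 524, 605, 929 and 483 CPM in HDM lungs, against 2572, 3595, 1376, 1522 and 1174 CPM in saline lungs (-1.50, SE 0.43, adjusted p = 0.0364). Saline replicates 1 and 2 were the highest, and the lowest saline lung was above the highest HDM lung. The mitochondrial ribosomal RNAs took 1.31 to 2.90% of counts in HDM lungs and 2.93 to 4.39% in saline lungs. Counts on the mitochondrial genome were incomplete, since mt-Co2, mt-Co3, mt-Atp6, mt-Atp8 and mt-Nd4l stood at 0.202 CPM or less in all 10 lungs and were not tested.

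Cytosolic ribosomal protein genes moved like the nuclear respiratory genes in direction: 7 of 38 were higher (18.4%, against 4.29% of all genes), 0 were lower, and the median was 0.26. In 18 the groups did not overlap (47.4%, against 5.19% of all genes). Rpl5 stood at 233, 272, 276, 269 and 273 CPM in HDM lungs, against 219, 220, 229, 224 and 223 CPM in saline lungs (0.25, SE 0.06, adjusted p = 0.0299), with HDM replicate 1 a few CPM above the saline lungs and the other 4 well above. Ribosomal protein genes have many processed copies in the genome, so their counts are uncertain. Genes called higher had a median exonic length of 3005 bases and a median GC content of 51.9%, against 4264.5 bases and 43.6% in genes called lower and 3615 bases and 48.9% in all genes tested. Length, GC content and the mitochondrial share thus moved with the groups, and their part in the respiratory, ribosomal and mitochondrial results was not tested.

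**Figure D3:**
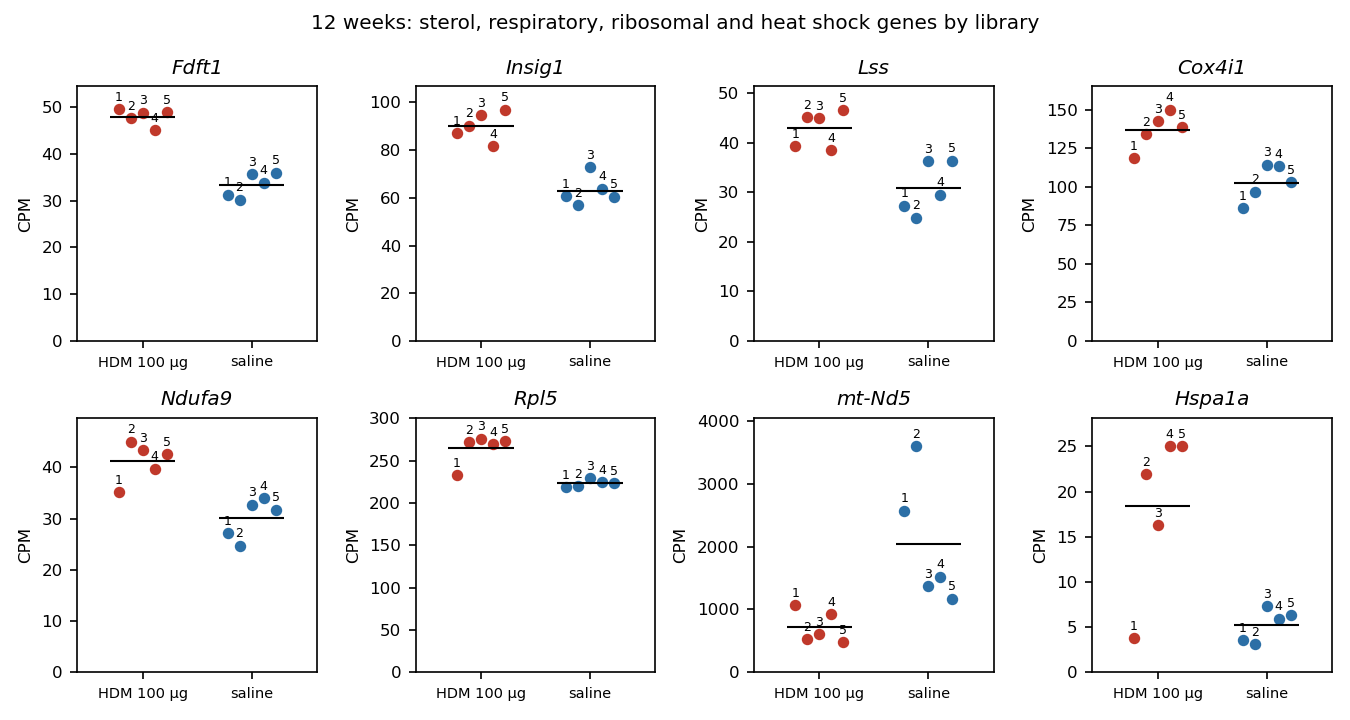
CPM (linear axes from 0) of 8 sterol, respiratory, ribosomal and heat shock genes in each 12-week lung, HDM red at left and saline blue at right, numbered by replicate, with a line at the group mean. Fdft1, Insig1, Lss, Cox4i1, Ndufa9 and Rpl5 lie higher in every HDM lung than in any saline lung, mt-Nd5 lower, and Hspa1a overlaps through HDM replicate 1.

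Lists for blood and neighbouring tissue were read for material taken along with the lung. Of 10 erythroid genes 2 were called higher and the median was 1.18. Without HDM replicate 2 edgeR called 0 and the median was 0.35, and 0 were called with limma-voom or with the replicate block. Hbb-bt, a beta-globin, stood at 33.3, 346, 96.5, 47.5 and 111 CPM in HDM lungs, against 38.8, 39.9, 58.6, 55.9 and 33.8 CPM in saline lungs (1.49, SE 0.41, adjusted p = 0.0325). HDM replicate 2 was the highest by far, and without it the log2 fold change of Hbb-bt was 0.66. The same lung had 14.0 CPM of Rag1, the recombinase of developing lymphocytes, against at most 1.49 CPM in the other HDM lungs and 0.855 CPM in saline lungs. It was also the highest in the interferon-stimulated gene Ifit3, at 154 CPM, the 1 called of 18 such genes (0.94, SE 0.24, adjusted p = 0.0279), whose fold change was 0.50 without it. Cardiac muscle (0 of 13, 117 to 784 CPM summed in HDM lungs and 141 to 590 CPM in saline lungs), skeletal muscle (0 of 8) and nerve (0 of 7) gave no call in edgeR, DESeq2 or limma-voom and 0 genes at an unadjusted p under 0.05 in edgeR. In fat 1 of 11 was higher, the lipid droplet gene Cidec (1.64, SE 0.39, adjusted p = 0.0245), in mesothelium 1 of 9, Krt19, in thymus 1 of 6, Cd1d1, and among liver-known genes 1 of 4 tested, Hp. The fat list summed to 24.2 to 90.2 CPM in HDM lungs and 35.7 to 69.6 CPM in saline lungs.

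Complement genes gave 3 higher and 1 lower of 17. The protease genes C1s1 and C2 and the pore component C7 rose (0.31, 0.74 and 0.49; adjusted p = 0.0269, 0.0333 and 0.0309), while C3ar1, the receptor for C3a on myeloid cells, fell by 0.98 (SE 0.23, adjusted p = 0.0233). Of 19 unfolded protein response genes 2 were higher, Herpud1, of endoplasmic reticulum protein disposal (0.56, SE 0.12, adjusted p = 0.0196), and the transcription factor Atf4 (0.31, SE 0.09, adjusted p = 0.0320), and of 15 hypoxia-responsive genes P4ha1 was the 1 called.

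**Figure D4:**
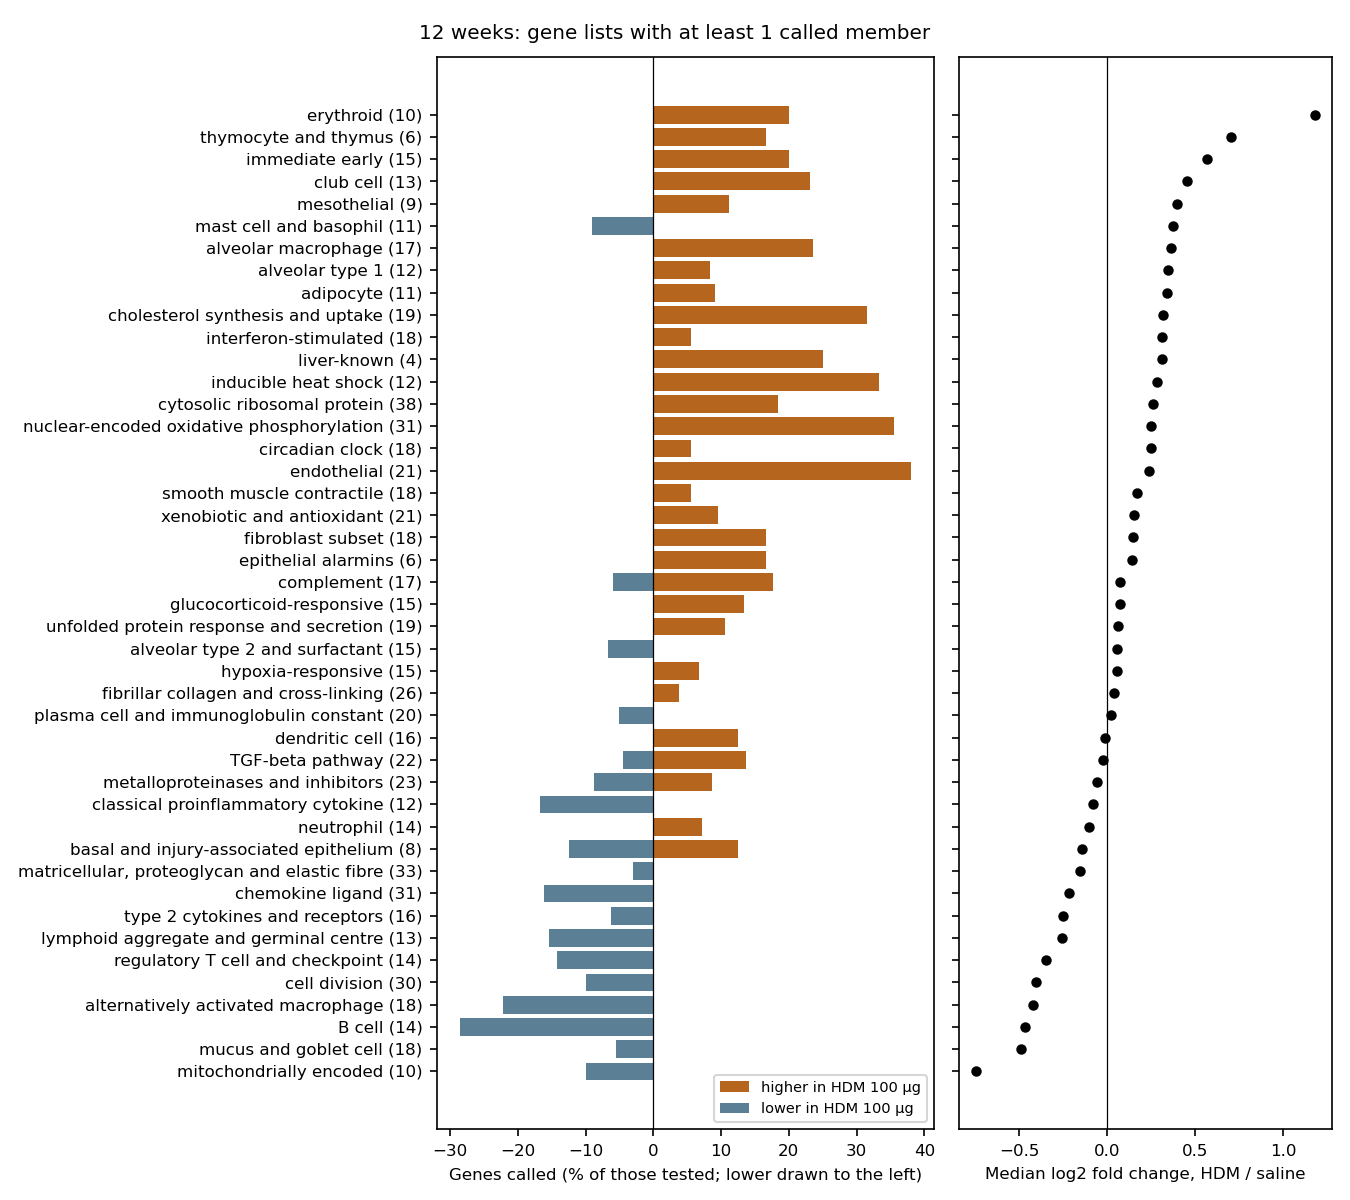
Left, for each gene list with at least 1 called member (number tested in brackets), the percentage of tested genes called higher (right of 0) or lower (left of 0) in HDM lungs; right, the list's median log2 fold change, HDM over saline. Lists run from erythroid genes, median 1.18 (0.35 without HDM replicate 2), to mitochondrially encoded genes, median -0.74; the lists with the highest shares called are endothelial and nuclear-encoded oxidative phosphorylation genes among those higher and B cell genes among those lower.

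Predicted genes and antigen receptor segments were left out of the ranking of largest changes. Outside the lists, the largest rises among called genes without overlap and with a mean of at least 1 CPM followed Ear1. They were Pim3, a survival kinase (1.05, SE 0.29), Mfsd2a, a lipid transporter (1.02, SE 0.27), Tmem160 (1.00, SE 0.30), Scarna2, a small nuclear RNA guide (0.98, SE 0.28), Cebpb, a transcription factor of myeloid and epithelial cells (0.91, SE 0.19), Rufy4, Id3, Higd1b, a pericyte gene, and Crym. Cebpb stood at 49.3, 45.0, 42.9, 55.7 and 81.2 CPM in HDM lungs, against 25.8, 17.1, 25.8, 37.3 and 39.6 CPM in saline lungs. Among the largest falls, Mucl1, a small mucin-like gene, stood at 2.03, 0.518, 0.244, 1.96 and 0.743 CPM in HDM lungs, against 7.39, 6.16, 2.56, 5.40 and 7.98 CPM in saline lungs (-2.44, SE 0.46, adjusted p = 0.0175). HDM replicates 1 and 4 were again the highest of their group and saline replicate 3 the lowest of its group. After Ccl28, Mucl1, mt-Nd5, Foxp3 and Cr2 came Dnm3os, a non-coding RNA of mesenchyme that carries microRNAs (-1.04, SE 0.23), the liver-intestine cadherin Cdh17 (-1.04, SE 0.31), CT010445.1 (-1.03, SE 0.26), BE692007 (-1.02, SE 0.20) and Draxin, an axon guidance factor (-0.89, SE 0.27). For Pim3, Id3, Scarna2 and Tmem160 saline replicates 1 and 2 were the lowest 2 lungs.

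The effect of 100 µg in the 12-week model was also set against its effect in the 2-week model, in a test of the difference between the effects, which share no library. The difference was called in 1624 genes (8.26%), 932 with the higher effect at 12 weeks (4.74%) and 692 with the lower (3.52%). Without 2-week saline replicate 4, in which 1 gene held 27.8% of the 7.23 M counts, the difference was called in 2242 genes. Foxp3 averaged 2.16 ± 0.492 CPM in HDM lungs and 5.32 ± 1.69 CPM in saline lungs at 12 weeks, and in the 2-week model its log2 fold change was 0.98 (SE 0.33, adjusted p = 0.0638), so that the effects differed by -2.28 (adjusted p = 0.00539). Insig1 stood at 0.52 in the 12-week model and -0.20 in the 2-week model (difference 0.72, adjusted p = 0.00539). Fcer2a was lower after 100 µg at 12 weeks and higher at 2 weeks (0.67, adjusted p = 0.0364; difference -1.31, adjusted p = 0.00710). Krt79 and Il18 had differences of 1.98 and 1.45 (adjusted p = 0.0157 and 0.00956) and Timp1 of -1.49 (adjusted p = 0.0290). The Arg1, Spp1, Mmp13, Ccl24 and Hspa1a effects did not pass the test of difference (adjusted p = 0.282, 0.799, 0.0547, 0.180 and 0.111). The 12-week saline lungs carry the allergic markers given at the start, and whether a difference of effects lies in the HDM or in the saline lungs of the models cannot be told apart.

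**Figure D5:**
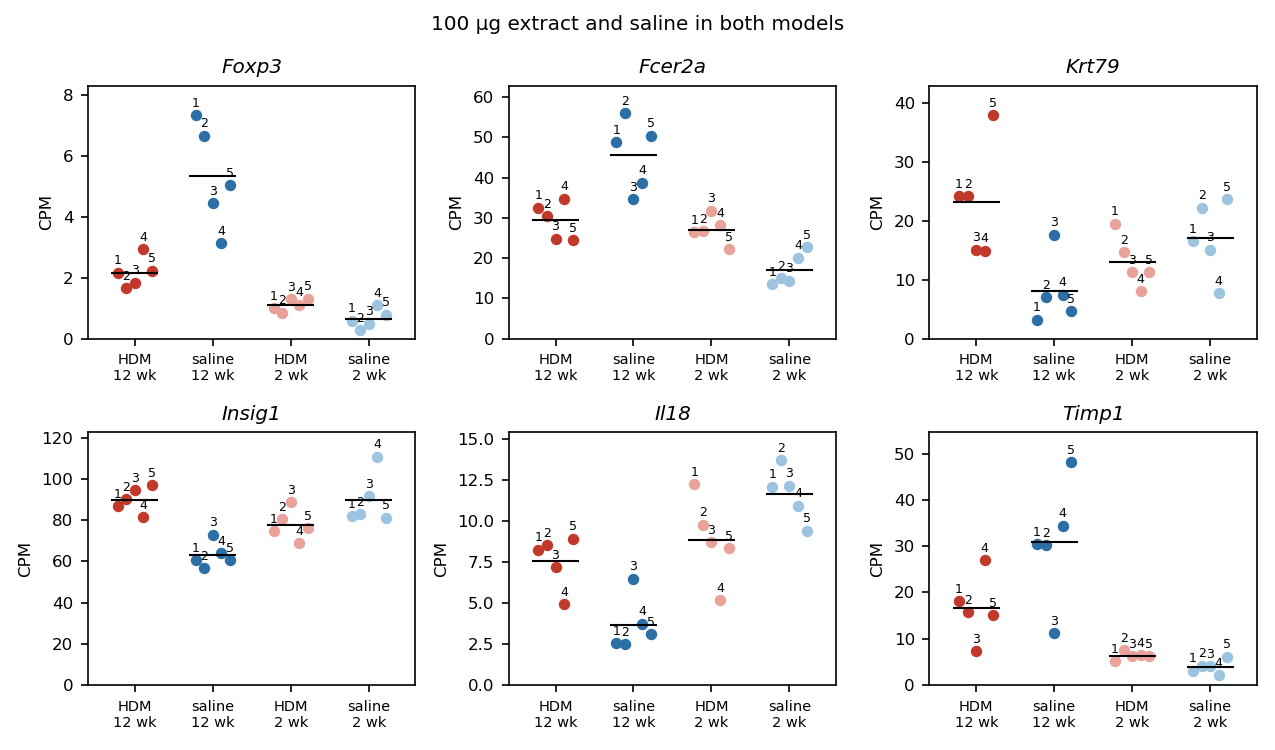
CPM (linear axes from 0) of 6 genes in each lung given 100 µg or saline, in the 12-week model at left and the 2-week model at right (HDM left of saline within each), numbered by replicate, with a line at the group mean. Foxp3 and Timp1 are higher in both 12-week groups than in the 2-week groups on average, and Insig1, Krt79 and Il18 have their lowest group mean in 12-week saline lungs.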

How the data were processed

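Total lung RNA was made into TruSeq Stranded Total RNA libraries, per the labels' protocols, and aligned with STAR 2.5.3a to GRCm38, per the submitters' processing notes. Which counter, strand mode and gene annotation the authors used is not given in the sources used here. The deposited table holds whole-number counts for 55421 genes, and symbols matched 99.5%. Of 45 pairs of 12-week libraries none was a duplicate (lowest chi-square per degree of freedom 17.3).

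edgeR 4.0.16 (R 4.3.3) was run with filterByExpr, TMM scaling, quasi-likelihood F-tests and Benjamini-Hochberg adjustment over 19654 genes, with all 25 libraries in 1 fit. A call is an adjusted p under 0.05. CPM are TMM-scaled and not divided by gene length. DESeq2 1.42.0, limma-voom 3.58.1, other scalings and filters, and each library left out were alternatives. Genes were named as the 10 largest rises and falls (called, no overlap, mean at least 1 CPM), with predicted genes and antigen receptor segments left out. A panel of 33 and up to 4 smallest-p members of each other list of the 55 were also named. Members and lists were chosen with earlier results of these data known, and a few members called are not reported here. Intervals of spread are over 5 lungs a group.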

Additional observations from a re-analysis of the deposited data

Results flagged for a closer look

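The effect of 100 µg of HDM against saline differed between the 12-week and the 2-week model for 39 of the 123 genes examined here, by the interaction term of edgeR's quasi-likelihood fit (adjusted p from 0.00379 to 0.04997). Over all genes tested the share was 8.26%. Most of the 123 were named by their 12-week result, and the same 12-week libraries enter this term. A higher share among them could follow from that choice alone. The values below are the 12-week log2 effect minus the 2-week one. It was more positive at 12 weeks for 24 genes: the macrophage, fibroblast and epithelial genes Ear1 (2.13), Krt79 (1.98), Il18 (1.45), Inmt (1.39), Fmo2 (1.18), Wnt2 (1.09) and Hopx (1.02), the respiratory chain, ribosome and sterol genes Insig1 (0.72), Cox4i1 (0.69), Fdft1 (0.56), Ndufa9 (0.54), Rpl5 (0.51) and Cox5b (0.46), the heat shock genes Hspb1 (0.97) and Dnajb1 (0.89), and G0s2 (1.37), Higd1b (1.21), Errfi1 (1.11), Rufy4 (1.06), C2 (0.99), Cd209a (0.98), Cldn5 (0.87), P4ha1 (0.84) and Bambi (0.76). For 15 genes it was more negative at 12 weeks: the lymphocyte genes Foxp3 (-2.28), Fcer2a (-1.31), Bank1 (-1.26), Ighd (-1.25), Cr2 (-1.21) and Ebf1 (-0.88), the chemokines Ccl28 (-3.70) and Ccl25 (-0.75), the matrix genes Timp1 (-1.49) and Col1a1 (-1.14), and Mucl1 (-2.91), Cdh17 (-1.76), Sprr1a (-1.47), BE692007 (-1.26) and C3ar1 (-1.07).

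In 11 of 246 pairs of gene and 12-week group, 1 lung stood far from the other 4 (by Dixon's test of its gap to the nearest lung, which chance passes in about 1 of 20 groups). The share of pairs is thus no higher than chance gives. HDM replicate 2 was the lung far from the rest in 6 of the 11, and it was the highest of its group each time, with 112.5 CPM for Muc5ac, 72.4 for Ier2, 5.11 for C2, 68.6 for Ighd, 14.0 for Rag1 and 346 for Hbb-bt. HDM replicate 1 was the lowest of its group for Rpl5 (233 CPM). Saline replicate 3 was the highest of its group for Inmt (624 CPM) and Fmo2 (680.2 CPM), saline replicate 2 for Ighe (79.8 CPM) and saline replicate 4 for Il25 (0.0314 CPM), the 1 lung with Il25 counts. Saline replicate 2 was also the deepest library of its group, with 44.2 M counts.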

How the results depend on the processing

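The 1644 genes called between HDM and saline lungs at 12 weeks became 2898 with DESeq2, 3072 with limma-voom and 293 with a 2-fold minimum. Fitting only the 10 12-week libraries gave 0 calls with edgeR (4991 genes at an unadjusted p under 0.05). Of alternatives chosen after seeing the data, those 10 libraries gave 0 calls with limma-voom and 1661 with DESeq2, leaving out saline replicates 1 and 2 together gave 0 with edgeR (2184 at an unadjusted p under 0.05), and leaving out HDM replicate 2 as well gave 0 (1335). Leaving out 1 12-week library gave from 0 to 3500. Without replicate 4 of 2-week saline the count was 2843, and for the difference between models it was 2242. That library had 7.23 M counts, 27.8% of them on 1 gene, and a mitochondrial share of 9.80%. Other scalings, filters and the replicate block gave 1163 (no filter) to 1949 (upper-quartile scaling). The 1624 genes whose effect differed between models became 919 with no filter, 2444 with DESeq2, 978 with only the 20 libraries of the contrast, and 777 to 2602 with 1 library left out. The causes were not tested.

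Replicate numbers did not pair the lungs. Deviations of same-numbered lungs from their group means had correlations of 0.0586, -0.147, 0.366, -0.0822 and 0.0196. Only HDM replicate 3 correlated best with the saline lung of its own number. Saline replicate 3 was also the best partner of HDM replicates 2 and 5. With the replicate block 1221 genes were called at 12 weeks and 1255 for the difference. Of the 168 named genes tested 11 changed sign in at least 1 setting, none of them in a setting where it was called before or after, among them Ighe (-0.99 to 0.92 with a lung left out), Ighg1 (-1.10 to 0.15) and Chil3 (-0.14 to 0.44). At 29.6 to 44.2 M counts a library, cytokine genes under 1 CPM rest on few reads.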
